A study of Mus musculus with 2 samples.

Results

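The heat shock chaperones described here are 10 genes, Hspa1a, Hspa1b, Hspa4l, Hsph1, Dnajb1, Hsp90ab1, Hsp90aa1, Hspa8, Cryab and Hspa5, out of 32289 features in each library. They were taken by gene symbol, and all 10 were found. The gene set was drawn up with the aged and young levels of these genes in the same libraries already known, so every aged and young value here is a description of the chosen genes and none is a test. UMIs (unique molecular identifiers, each standing for 1 captured RNA molecule) were counted in barcodes with at least 500 genes and at most 5% mitochondrial UMIs, which left 8597 of 1967507 barcodes in the aged library and 10437 of 1984763 in the young library. The study asked about vasopressin neurons of the supraoptic nucleus in ageing, water balance and body temperature. Single nuclei of the anterior hypothalamus and preoptic area were profiled by droplet sequencing in a library from 22-month-old male mice and a library from 3-month-old male mice. The young mice were wild type, and the labels give no genotype for the aged mice beyond their age. Tissue of 5 mice was pooled for each library, nuclei were purified on a density gradient with beads that remove myelin, and nuclei stained with DAPI were sorted. With 1 library per age there was no replicate, so the differences between ages could not be tested, the effects of age, library and pool cannot be told apart, and all intervals are 95% intervals that cover counting error only. A further limit is that nuclear RNA was measured.

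Molecular chaperones help other proteins to fold and keep damaged ones from clumping. Proteins of the HSP70 family bind exposed stretches of unfolded protein in a cycle driven by ATP, J-domain proteins such as Dnajb1 deliver the clients, and HSP110 proteins such as Hsph1 and Hspa4l exchange the bound nucleotide. HSP90 proteins finish the folding of many kinases and receptors, and small heat shock proteins such as Cryab hold unfolded clients without using ATP. Heat and other protein-damaging stress switch on many of these genes through heat shock factor 1 (HSF1), which binds repeats of the unit nGAAn called heat shock elements. Hspa5, known as BiP, does the same work inside the endoplasmic reticulum and is switched on by the unfolded protein response.

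Promoters of 4 members are shown because each holds a stress-response element, with the DNA motif in capitals. Sequences are from RefSeq on the mouse build GRCm38.p6, each the 250 bases before the annotated start, written 5′ to 3′ on the strand of the gene. Hspa1a and Hspa1b, neighbouring genes on chromosome 17 for the stress-inducible HSP70, hold a pair of heat shock units facing each other (GAANNTTC) that begins 104 bases before each start. Hsph1 on chromosome 5 holds a pair facing away from each other (TTCNNGAA) that begins 33 bases before its start. Hspa5 on chromosome 2 holds an endoplasmic reticulum stress element (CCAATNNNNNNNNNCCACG) that begins 65 bases before its start.
Hspa1a promoter, chr17:34972157-34972406, minus strand: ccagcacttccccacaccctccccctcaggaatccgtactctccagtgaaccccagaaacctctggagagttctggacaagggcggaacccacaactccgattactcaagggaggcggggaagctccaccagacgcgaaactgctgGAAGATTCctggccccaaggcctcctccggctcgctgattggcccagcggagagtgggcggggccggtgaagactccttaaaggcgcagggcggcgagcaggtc
Hspa1b promoter, chr17:34959239-34959488, minus strand: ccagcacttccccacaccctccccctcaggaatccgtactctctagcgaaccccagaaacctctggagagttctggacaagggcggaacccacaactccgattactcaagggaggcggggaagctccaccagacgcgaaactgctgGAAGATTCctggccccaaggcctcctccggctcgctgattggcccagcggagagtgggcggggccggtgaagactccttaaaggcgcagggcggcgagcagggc
Hsph1 promoter, chr5:149636337-149636586, minus strand: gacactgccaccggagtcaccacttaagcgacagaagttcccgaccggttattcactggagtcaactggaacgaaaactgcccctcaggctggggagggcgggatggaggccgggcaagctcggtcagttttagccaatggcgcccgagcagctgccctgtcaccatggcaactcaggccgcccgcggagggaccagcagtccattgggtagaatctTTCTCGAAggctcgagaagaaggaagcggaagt
Hspa5 promoter, chr2:34771840-34772089, plus strand: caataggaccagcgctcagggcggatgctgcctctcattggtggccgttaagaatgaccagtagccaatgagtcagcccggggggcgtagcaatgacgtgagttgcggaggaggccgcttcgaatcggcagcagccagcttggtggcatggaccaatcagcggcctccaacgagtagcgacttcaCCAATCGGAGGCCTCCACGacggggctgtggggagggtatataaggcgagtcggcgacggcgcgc

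The Hspa1a and Hspa1b stretches were identical at 247 of 250 positions. Of the 10 members, 6 were matched in the promoter table, and Dnajb1 and Hspa4l held none of the motifs searched. On either strand, GAANNTTC was found in 6.78% of 27025 promoters of the same table, TTCNNGAA in 7.10% and the endoplasmic reticulum stress element in 0.122%. A run of 3 heat shock units (GAANNTTCNNGAA), which contains the first motif, was found in 0.400% of promoters and in 0 of the 6 matched members. The short motifs are common, so a match describes the letters and no more. The Hspa1a and Hspa1b transcripts are also much alike: 49.3% of the 90-base windows of Hspa1a recur in Hspa1b, but 0 of 411 windows in the last 500 bases of either do. UMIs of the pair are therefore given singly and summed.

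Before results, the libraries were compared as wholes. After 403 aged and 499 young barcodes were left out as likely doublets, 8194 aged and 9938 young nuclei were clustered, with medians of 5467.5 and 5355 UMIs. Clusters named by marker genes gave 5 classes: neurons, with 4972 aged and 6417 young nuclei; oligodendrocytes, with 1879 and 2133; microglia, with 423 and 499; oligodendrocyte precursors, with 183 and 254; and astrocytes, with 152 and 389. Every neuron, oligodendrocyte, microglia, astrocyte and precursor marker was detected in its own class in both libraries. Clusters without a name held 519 aged and 89 young nuclei with medians of 683 and 710 UMIs, and the libraries shared 25 barcodes. Endothelial, mural and fibroblast classes held at most 95 nuclei per library and are not described further.

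All 10 members were also seen in droplets without nuclei, here the 25000 barcodes ranked 15001 to 40000 by UMIs in each library. These droplets were taken as a measure of free RNA, and whether they also hold other material was not tested. Counts were scaled to UMIs per 1000000 UMIs of the group (CPM), with ratios given as aged over young. All 10 had ratios below 1 in these droplets, a set of ranks chosen after seeing the data, from 0.376 for Hspa1b, at 3.35 CPM in aged and 8.91 CPM in young droplets, to 0.873 for Hspa4l, at 154 and 176 CPM. A member with at least 50 UMIs over both libraries of a group was counted as lower past the threshold at a ratio of 0.8 or below, and as higher past the threshold at the inverse of 0.8 or above. By that rule 6 of 10 members were lower in aged droplets, Hspa1a, Hspa1b, Hsph1, Dnajb1, Hsp90ab1 and Hspa5, against 9.26% of all genes with enough UMIs. Hsp90ab1 stood at 1767 CPM in aged and 2410 CPM in young droplets, and Hspa5 at 206 and 321 CPM. A second measure of free RNA, barcodes with at most 100 UMIs, gave 5 ratios below 1 and 5 above. There Hspa8 was at 1.14 (1.07 to 1.21) and Cryab at 1.18 (1.05 to 1.33), while Hsp90ab1 was at 0.855. For most class ratios past the threshold, the UMIs that the same number of average droplets would add are given beside them, and the part of free RNA in any difference was not tested.

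The classes differed in which chaperones they held. Cryab, the small heat shock protein that is abundant in myelinating cells, was highest of the 5 classes in oligodendrocytes, at 309.5 CPM (293 to 327) in aged and 432 CPM (412 to 451) in young nuclei. The next classes for Cryab were astrocytes at 60.1, precursors at 58.4 and microglia at 53.1 CPM in the aged library, against 46.8, 59.3 and 79.1 CPM in the young library, with overlapping intervals apart from microglia over astrocytes in the young library. Neurons were lowest for Cryab, at 17.6 and 18.0 CPM. Hsp90ab1, the constitutive cytosolic HSP90, was likewise highest in oligodendrocytes, with microglia at 347 and 448 CPM and precursors at 312 and 316 CPM. Hsp90aa1, its stress-inducible partner, stood at 488 and 554 CPM in oligodendrocytes and at 271 and 273 CPM in microglia. Hspa8, the constitutive HSP70, was at 357 and 355 CPM in oligodendrocytes, 326 and 324 CPM in microglia and 158 and 163 CPM in neurons. Droplet RNA made up much of these levels, and the order below oligodendrocytes changed when it was subtracted. That left Hsp90aa1 in microglia at 0 and 0 CPM, against 131 and 127 CPM in neurons, whereas subtracting the barcodes with at most 100 UMIs left 245 and 249.7 CPM in microglia, against 164 and 158 CPM in neurons. Droplet subtraction left Hsp90ab1 at 74.9 and 139.6 CPM in microglia and 176 and 199 CPM in neurons, and Hspa8 at 77.7 and 80.7 CPM in microglia and 99.3 and 109 CPM in neurons. Oligodendrocytes were highest of the 5 classes for Cryab, Hsp90ab1, Hsp90aa1 and Hspa8 under both subtractions.

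Hspa4l and Hspa5 followed other orders. Hspa4l, an HSP110 protein, stood at 87.2 CPM in aged and 93.4 CPM in young neurons, and the young oligodendrocytes stood level with young neurons, at 93.0 CPM. Microglia, at 31.8 CPM in aged and 25.7 CPM in young nuclei, and the aged precursors, at 31.7 CPM, were lowest for Hspa4l. Hspa5 was highest in microglia, at 196 and 286 CPM, then in precursors at 168 and 246 CPM, whose intervals overlap those of microglia in both libraries. Hsph1 was highest in oligodendrocytes at 53.6 and 71.4 CPM, with intervals that overlap those of precursors in both libraries, and the 8 aged astrocyte UMIs gave the lowest level, 15.02 CPM. With droplet RNA subtracted, Hsph1 was no longer highest in aged oligodendrocytes, at 27.5 CPM, against 34.1 CPM in aged precursors and 32.5 CPM in aged neurons. Dnajb1, the inducible J-domain partner of HSP70, never passed 14.1 CPM in any of the 5 classes.

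**Figure D1:**
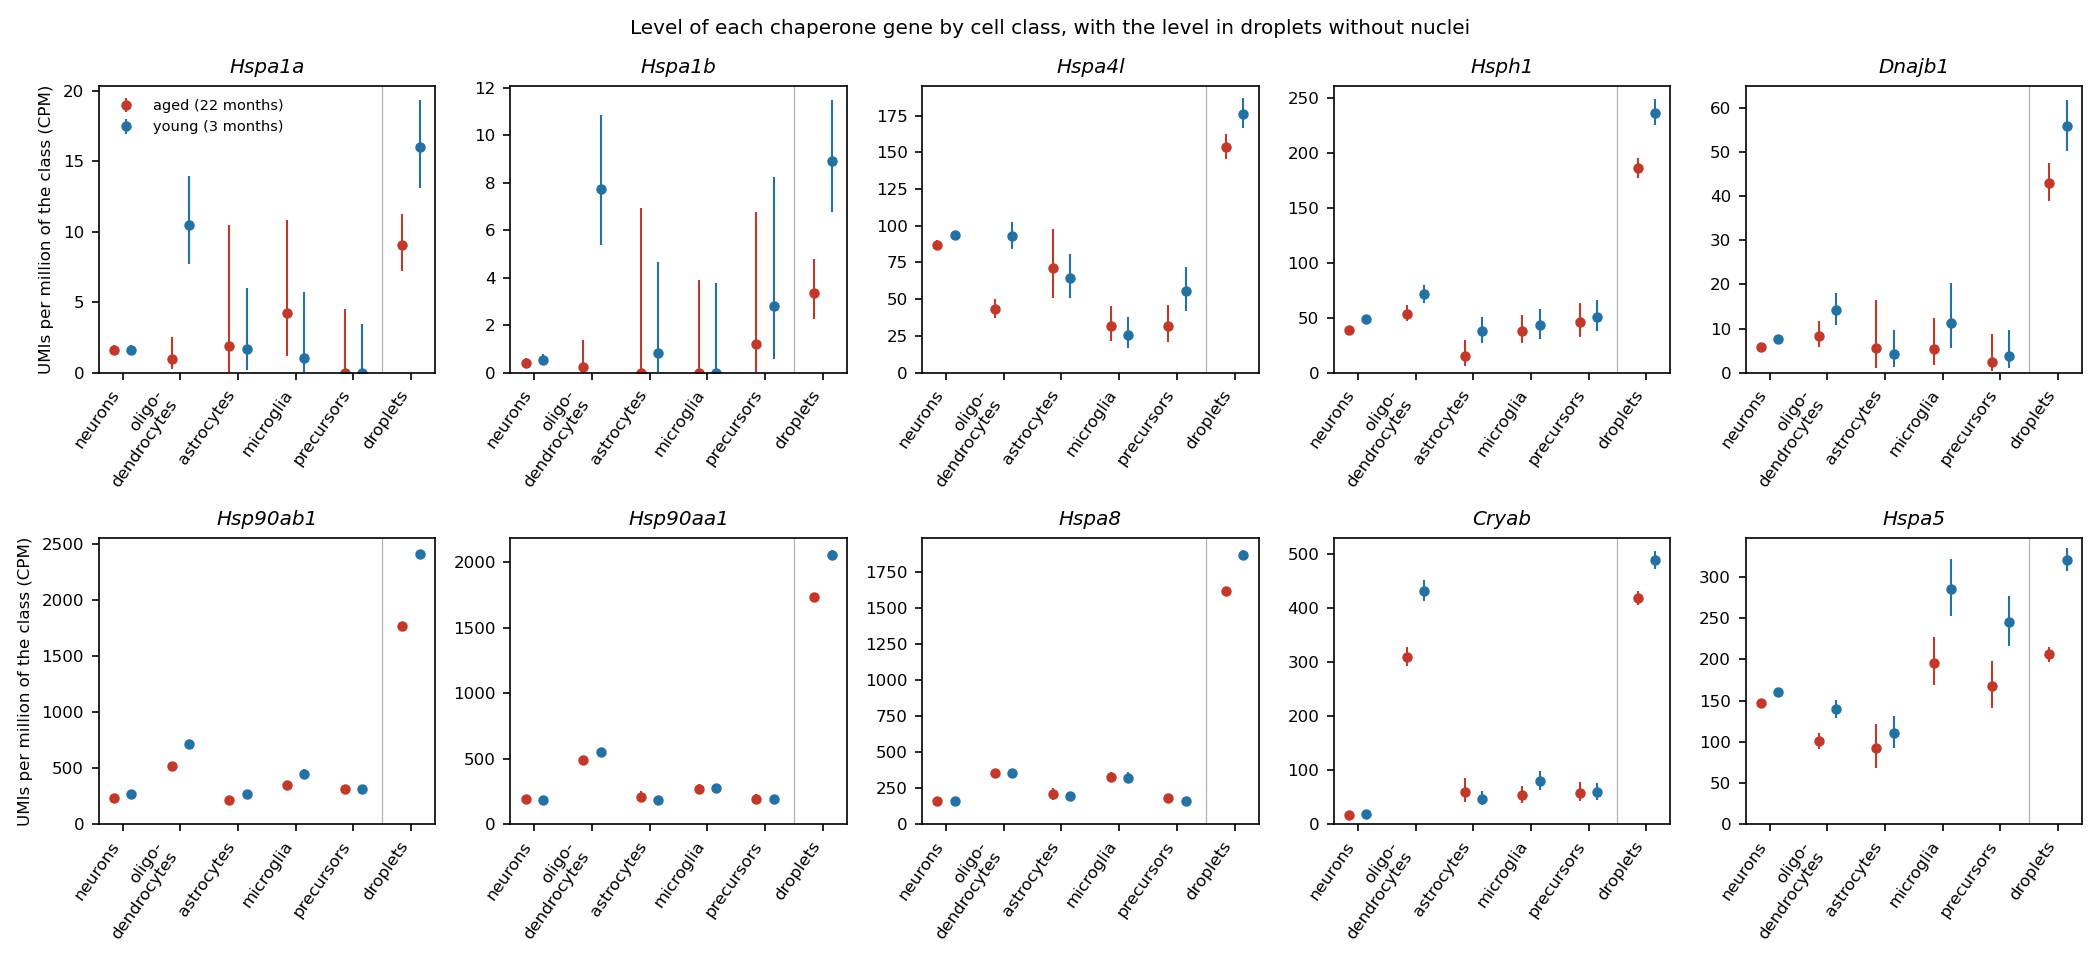
Level of each member in CPM in 5 classes of nuclei and in droplets without nuclei, with the aged library left of the young library and bars for exact Poisson 95% intervals (counting error only, 1 library per age). Cryab stands highest in oligodendrocyte nuclei, at 309.5 CPM in aged and 432 CPM in young nuclei, and Hsp90ab1 is at 1767 CPM in aged and 2410 CPM in young droplets.

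In oligodendrocytes, the myelinating cells, 8 of the 10 members had ratios of 0.8 or below, 7 of them with at least 50 UMIs, while Hsp90aa1 and Hspa8 lay closer to 1. The 7 of 9 members with enough UMIs, all but Hsp90aa1 and Hspa8, compare with 8.28% of 10930 genes that low. No member was higher past the threshold, against 22.6% of genes. Such shares stand beside the first count of members in each class, and nothing is read from them, since the genes were chosen with these values known. The median log2 ratio over all 10 members was -0.46, and over all genes with enough UMIs 0.09. A scaling by trimmed means (TMM), which puts the middle of all genes nearer 0, moves oligodendrocyte values down by 0.11 on the log2 scale, and 7 members were past the threshold under it too.

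The inducible HSP70 genes differed most. Hspa1a gave 4 UMIs in aged oligodendrocytes and 46 in young ones, or 0.979 CPM (0.267 to 2.51) and 10.5 CPM (7.68 to 13.99), a ratio of 0.0934 (0.0244 to 0.256). Hspa1b gave 1 and 34 UMIs, a ratio of 0.0316 (0.000777 to 0.188). The intervals of the libraries did not overlap for either gene. An Hspa1a or Hspa1b UMI was found in 5 of 1879 aged nuclei, or 0.266% (0.0865 to 0.620, Clopper-Pearson), and in 71 of 2133 young nuclei, or 3.33% (2.61 to 4.18). Depth ran the other way, with medians of 2024 UMIs in aged and 1891 UMIs in young oligodendrocytes. With nuclei thinned to 1000 UMIs, the share with an Hspa1a UMI was 0.128% in aged and 1.10% in young oligodendrocytes. Average droplets without nuclei would add 8.34 UMIs of the pair, against 5 counted, in aged oligodendrocytes and 14.1, against 80 counted, in young ones. The aged count was thus not above free RNA by the droplet measure. No nucleus held more than 1 UMI of the pair among aged or 3 among young nuclei, so the young UMIs were spread over many nuclei.

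The same direction was seen in both oligodendrocyte clusters. In the cluster led by Il33, St18 and Mal, 1585 aged nuclei gave 4 UMIs of the pair and 1670 young nuclei gave 68, or 1.22 and 20.5 CPM. In the smaller cluster led by Enpp6, Anln and Hapln2, 294 aged nuclei gave 1 UMI and 463 young nuclei gave 12, or 1.26 and 11.2 CPM. Neurons gave 91 and 118 UMIs of the pair, in 1.73% of aged nuclei and 1.76% of young nuclei at medians of 8343 and 7756 UMIs, where droplets would add 22.1 and 42.4 UMIs. The ratio of the pair in neurons was 0.929 (0.699 to 1.23), an interval that includes 1. Microglia, at medians of 2122 and 1794 UMIs, held an Hspa1a or Hspa1b UMI in 0.946% of aged and 0.2004% of young nuclei, from 4 UMIs and 1 UMI. Astrocytes gave 1 UMI in aged and 3 in young nuclei, and precursors likewise gave 1 and 3. Their ratios had intervals of 0.0143 to 9.32 in astrocytes and 0.00822 to 5.37 in precursors, so a difference of the size seen in oligodendrocytes was not detectable at this depth.

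**Figure D2:**
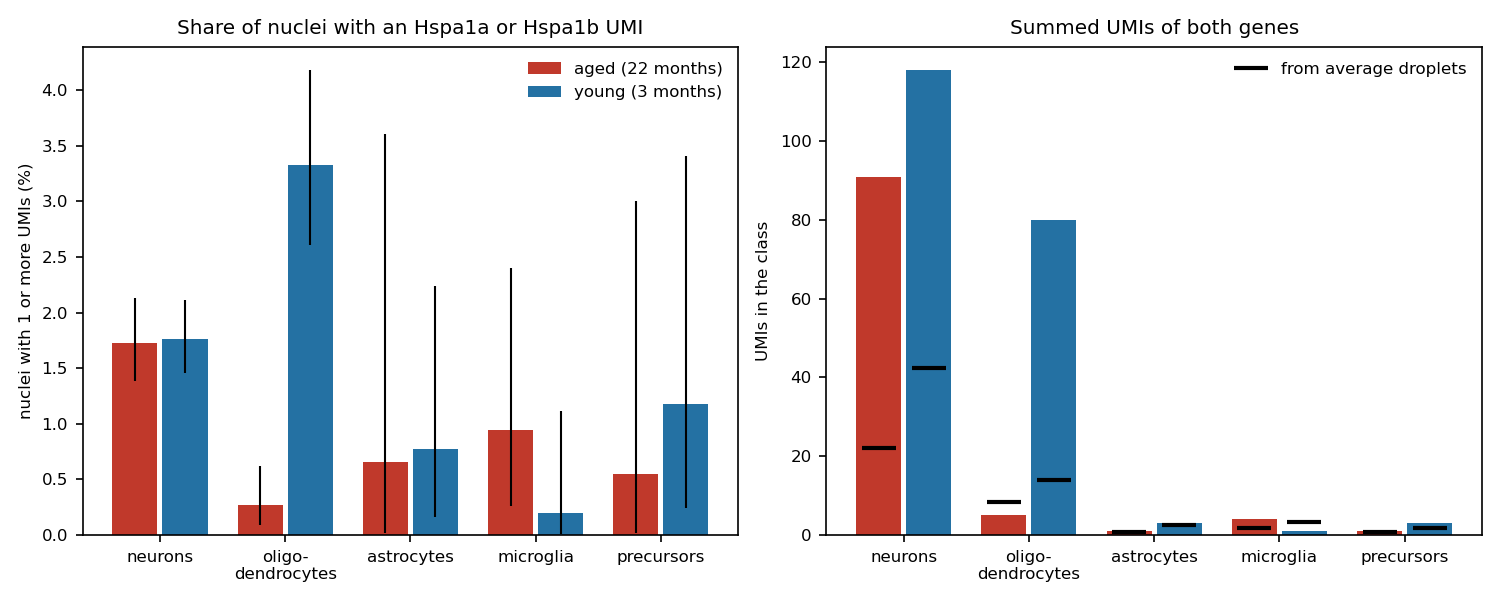
Left, share of nuclei with at least 1 Hspa1a or Hspa1b UMI in percent by class, aged left of young, with Clopper-Pearson 95% intervals; right, summed UMIs of the pair, with black marks for the UMIs that average droplets without nuclei would add. In oligodendrocytes 5 of 1879 aged nuclei and 71 of 2133 young nuclei held such a UMI, and the aged sum of 5 lies below its mark of 8.34.

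Among young oligodendrocytes, the 71 nuclei with an Hspa1a or Hspa1b UMI were set beside the 2062 without one, at medians of 2068 and 1883.5 UMIs. Hsp90aa1 stood at 782 CPM in nuclei with such a UMI and 544 CPM in the rest, a ratio of 1.44 (1.20 to 1.71). Cryab gave 563 and 426 CPM, a ratio of 1.32 (1.07 to 1.62), and Hsp90ab1 862 and 712 CPM, a ratio of 1.21 (1.02 to 1.43). The intervals of the remaining members included 1. These nuclei were picked by their own counts in 1 library, so the ratios describe that library. Of the young UMIs of the pair, 68 lay in the 1670 nuclei of the Il33, St18 and Mal cluster and 12 in the 463 nuclei of the Enpp6, Anln and Hapln2 cluster. In that order, these young clusters held Hsp90aa1 at 579 and 475 CPM, Cryab at 480 and 282 CPM and Hsp90ab1 at 749 and 621 CPM. How many of all genes have intervals that leave out 1 here was not computed, and the parts of cluster and free RNA were not tested.

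The HSP110 genes and Dnajb1 were also lower in aged oligodendrocytes. Hspa4l gave 177 UMIs in 1879 aged nuclei and 408 in 2133 young ones, or 43.3 CPM (37.2 to 50.2) and 93.0 CPM (84.2 to 102), a ratio of 0.466 (0.388 to 0.557). At 1000 UMIs per nucleus, 4.19% of aged and 8.62% of young oligodendrocytes held an Hspa4l UMI. Droplets would add 58.4% of the aged and 24.4% of the young Hspa4l UMIs, and with droplet RNA subtracted the ratio was 0.267. Hsph1 gave 219 and 313 UMIs, or 53.6 and 71.4 CPM, a ratio of 0.751 (0.629 to 0.896). Dnajb1 gave 34 and 62 UMIs, or 8.33 and 14.1 CPM, a ratio of 0.589 (0.376 to 0.909). In the Il33, St18 and Mal cluster 31 and 42 Dnajb1 UMIs gave 0.744 (0.452 to 1.21), an interval that includes 1. In the Enpp6, Anln and Hapln2 cluster 3 and 20 UMIs gave 0.203 (0.039 to 0.683). Droplets would add 57.2% of the aged and 42.7% of the young Hsph1 UMIs, and 85.1% and 50.9% of the Dnajb1 UMIs. Subtraction moved the Dnajb1 ratio to 0.186, but from only 1.48 and 7.96 CPM left. Subtracting the barcodes with at most 100 UMIs left 4.55 and 12.8 CPM, a ratio of 0.3545.

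Of the HSP90 pair, the constitutive form differed more than the inducible one. Hsp90ab1 gave 2132 UMIs in aged and 3150 in young oligodendrocytes, or 522 CPM (500.1 to 545) and 718 CPM (693 to 744), a ratio of 0.727 (0.688 to 0.768). Hsp90aa1 stood at 488 and 554 CPM, a ratio of 0.882 (0.831 to 0.936) that did not reach the threshold. The intervals of these ratios do not overlap. Hspa8 gave a ratio of 1.01 (0.936 to 1.08). With droplet RNA subtracted the Hspa8 ratio was 0.824. With the barcodes of at most 100 UMIs subtracted instead, it passed the threshold, at 0.789. Droplets would add 55.8% of the aged and 43.2% of the young Hsp90ab1 UMIs, and 74.7% and 67.8% of the Hspa8 UMIs. For Hsp90aa1 they would add 58.4% and 47.8%. Droplet subtraction took the Hsp90aa1 ratio past the threshold, to 0.733, and the Hsp90ab1 ratio to 0.591. Subtracting the barcodes with at most 100 UMIs left Hsp90aa1 at 0.871 and Hsp90ab1 at 0.713.

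Cryab and Hspa5 completed the set that was lower in aged oligodendrocytes. Cryab gave 1264 UMIs in aged and 1893 in young nuclei, a ratio of 0.717 (0.667 to 0.771), and 26.5% of aged and 33.2% of young nuclei thinned to 1000 UMIs held 1. Droplets would add 22.2% of the aged and 14.6% of the young Cryab UMIs, the smallest shares of any member in oligodendrocytes. Hspa5 gave 410 and 611 UMIs, or 100.4 and 139 CPM, a ratio of 0.721 (0.634 to 0.818), with droplet shares of 33.8% and 29.6%. Within the Il33, St18 and Mal cluster Cryab stood at 333 and 480 CPM, and within the Enpp6, Anln and Hapln2 cluster at 211 and 282 CPM. Both clusters thus showed Cryab lower in the aged library.

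**Figure D3:**
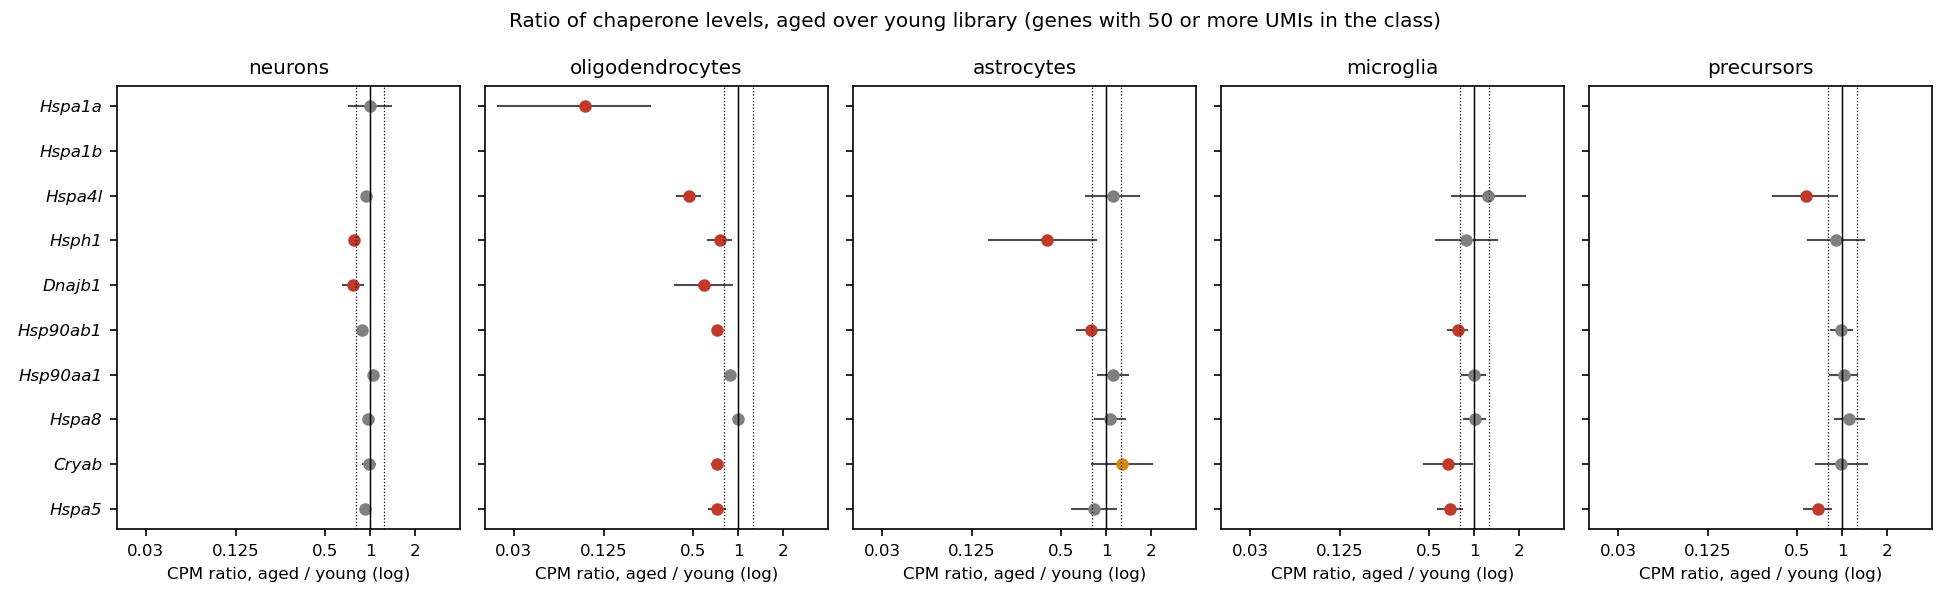
Ratio of CPM, aged over young, on a log axis for each member with at least 50 UMIs in 5 classes, with exact 95% intervals (counting error only) and dotted lines at 0.8 and its inverse; red marks ratios of 0.8 or below, orange its inverse or above, grey between. In oligodendrocytes 7 of 9 members are red, and in neurons 2 of 9.

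In neurons, 2 of 9 members with enough UMIs were lower past the threshold, Hsph1 and Dnajb1, against 13.6% of 18000 genes, and none was higher, against 10.7% of genes. Hsph1 gave 1774 UMIs in aged and 2744 in young neurons, or 38.4 CPM (36.6 to 40.2) and 49.3 CPM (47.5 to 51.2), a ratio of 0.779 (0.734 to 0.827). Dnajb1 gave 266 and 419 UMIs, or 5.76 and 7.53 CPM, a ratio of 0.765 (0.654 to 0.894). Both are inducible parts of the HSP70 machine. Droplets would add 18.7% of the aged and 14.7% of the young Hsph1 UMIs, and subtraction left the Hsph1 ratio at 0.749. For Dnajb1 droplets would add 28.8% and 22.7%. The other ratios with enough UMIs were closer to 1: 0.890 for Hsp90ab1, 0.919 for Hspa5, 0.934 for Hspa4l, 0.968 for Hspa8, 0.978 for Cryab, 1.04 for Hsp90aa1 and 1.00 (0.723 to 1.38) for Hspa1a. Hspa1b, with too few UMIs to be counted, gave 18 and 30, a ratio of 0.723 (0.380 to 1.34). Droplets would add 91.3% of the aged and 82.7% of the young Cryab UMIs of neurons. Subtraction moved that ratio to 0.493, but from only 1.59 and 3.22 CPM left, and the other subtraction left 0 and 0 CPM. With the barcodes of at most 100 UMIs subtracted instead, the Hspa8 ratio in neurons passed the threshold, at 0.695. Neurons and oligodendrocytes had ratios for Hsph1 that lay close, 0.779 and 0.751, while those for Hspa4l, 0.934 and 0.466, had intervals that did not overlap.

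The other glia showed fewer differences on fewer nuclei. In astrocytes, 2 of 7 members with enough UMIs were lower past the threshold, Hsph1 and Hsp90ab1, against 16.6% of genes, and 1, Cryab, was higher, against 20.1%. Astrocyte Hsph1 gave 8 UMIs in 152 aged nuclei and 45 in 389 young ones, a ratio of 0.399 (0.163 to 0.856), where droplets would add 10.1 and 24.4 UMIs. Astrocyte Cryab gave 32 and 56 UMIs and a ratio of 1.28 (0.804 to 2.02) whose interval included 1, and droplets would add 71.0% of the aged and 89.7% of the young UMIs. Astrocyte Hsp90ab1 gave 113 and 319 UMIs and a ratio of 0.795 (0.636 to 0.989), and droplets would add 85.1% and 77.8% of them. By the droplet measure, these 3 astrocyte values rest largely on counts near free RNA. Subtracting the barcodes with at most 100 UMIs left Hsp90ab1 at 139 CPM in aged and 240 CPM in young astrocytes, a ratio of 0.582. The same subtraction left Hsph1 at 0 and 32.9 CPM and Cryab at 9.69 and 32.2 CPM. Neuron markers summed to 1117 CPM in aged and 616 CPM in young astrocytes, and their part in the astrocyte ratios was not tested.

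In microglia, the resident macrophages of brain tissue, 3 of 7 members were lower, Hsp90ab1, Cryab and Hspa5, against 15.2% of genes, and none was higher, against 21.0%. Hspa5 gave 185 UMIs in aged and 278 in young microglia, a ratio of 0.687 (0.567 to 0.830), with droplet shares of 16.9% and 15.2%. Hsp90ab1 gave 327 and 436 UMIs, a ratio of 0.774 (0.669 to 0.896), and droplets would add 81.8% and 73.0% of them. Cryab in microglia, with 50 and 77 UMIs, gave 0.670 (0.460 to 0.969), but droplets would add 126% of the aged and 83.7% of the young UMIs. The 5 border macrophage markers, whose cells were not separated from microglia, were all detected and summed to 137 CPM in aged and 355 CPM in young microglia, and their part in these ratios was not tested.

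In oligodendrocyte precursors, 2 of 7 members were lower, Hspa4l and Hspa5, against 17.4% of genes, and none was higher, against 20.9%. Hspa4l gave 26 UMIs in aged and 59 in young precursors, or 31.7 and 55.5 CPM, a ratio of 0.570 (0.345 to 0.919), with droplet shares of 38.7% and 20.1%. Hspa5 gave 138 and 261 UMIs, a ratio of 0.684 (0.553 to 0.844), with droplet shares of 9.78% and 8.26%. The remaining 5 lay between 0.911 and 1.11. Markers of mature oligodendrocytes summed to 481 CPM in aged and 1277 CPM in young precursors, and their part in the Hspa4l ratio was not tested. Hspa5 was thus at or below 0.8 in oligodendrocytes, microglia and precursors, and at 0.919 in neurons. In astrocytes 49 aged and 132 young Hspa5 UMIs gave 0.834 (0.588 to 1.17), an interval that covers the ratios of the other classes. Subtracting the barcodes with at most 100 UMIs moved the astrocyte ratio to 0.701. Differences between classes were not tested.

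Clustering gave 23 neuron types, named by their leading genes, of which 22 had at least 20 nuclei in both libraries. Hsph1 had at least 50 UMIs in 20 of them and a ratio below 1 in 19, with 14 at 0.8 or below. The median Hsph1 ratio was 0.759. The lowest was in the thalamic-type neurons led by Synpo2, Plekhg1 and Tcf7l2, where 70 UMIs in aged and 96 in young nuclei gave 32.0 and 61.3 CPM, a ratio of 0.523 (0.378 to 0.719). The Prdm16 Ano1 Clic4 type stood at 26.4 and 49.6 CPM. In the type led by Trh, Sim1 and Avp, like neurons of the paraventricular and supraoptic nuclei, Hsph1 stood at 39.5 and 52.0 CPM, a ratio of 0.759 (0.622 to 0.922). That type, of 403 aged and 582 young nuclei, was not split further, so its values are not those of supraoptic vasopressin neurons alone. The Drd1 and Pdyn type led by Impg1 stood at 45.6 and 46.8 CPM, and the 1 type above 1 was Egfr Igfbp4 Kit at 49.3 and 39.7 CPM, a ratio of 1.24 (0.701 to 2.16). Levels of Hsph1 were highest in the suprachiasmatic-type neurons led by Vip, at 54.8 and 81.0 CPM.

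**Figure D4:**
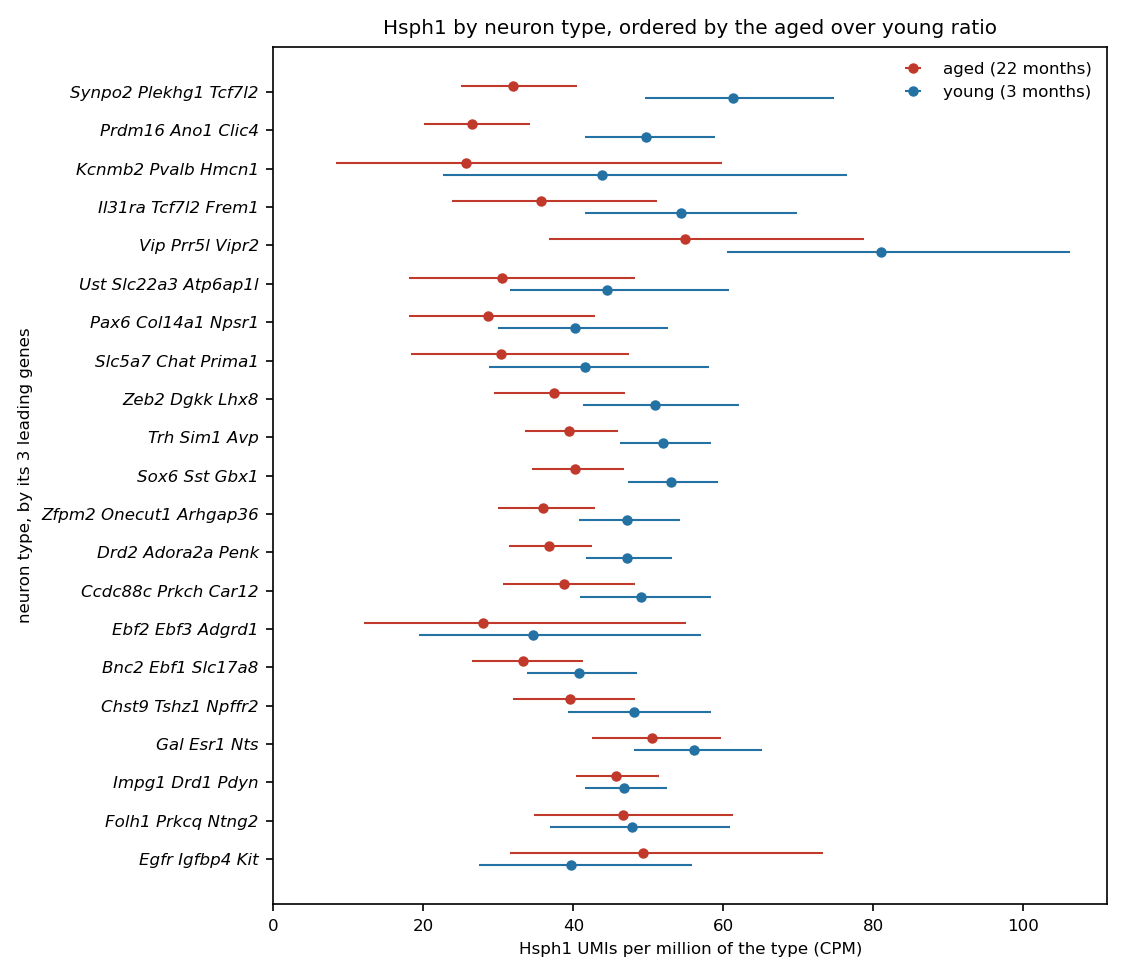
Hsph1 level in CPM in 21 of the 22 neuron types, ordered by the ratio of aged over young, with the aged library above the young library and exact Poisson 95% intervals (counting error only). Of the 19 drawn types with at least 50 Hsph1 UMIs, 18 have the aged point left of the young point, with the lowest ratio, 0.523, in the Synpo2 Plekhg1 Tcf7l2 type.

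Across all pairs of a member and a neuron type with at least 50 UMIs, 35 of 148 were at 0.8 or below, against 15.2% of all gene and type pairs. Hsph1 made up 14 of the 35. Hsp90ab1 was below 1 in 20 of 22 types, against 47.7% of all gene and type pairs, but at or below 0.8 in 4, with the lowest ratio, 0.728, in the Ust Slc22a3 Atp6ap1l type. Hspa5 was below 1 in 17 of 22 types, 7 of them at 0.8 or below, and lowest in the Folh1 Prkcq Ntng2 type at 113 and 164 CPM, a ratio of 0.686 (0.546 to 0.859). Hsp90aa1 was above 1 in 15 of 22 types, against 52.3% of all pairs, with the Egfr Igfbp4 Kit type at 335 and 213 CPM, a ratio of 1.57 (1.26 to 1.95), and the Vip type at 304 and 235 CPM, a ratio of 1.29 (1.03 to 1.63). In the Trh Sim1 Avp type Hsp90aa1 stood at 261 and 225 CPM, a ratio of 1.16 (1.07 to 1.26). Hspa5 there stood at 209 and 185 CPM, a ratio of 1.13 (1.03 to 1.24), above 1 where most types were below.

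Single types stood apart for several members at once. In the Ust Slc22a3 Atp6ap1l type, 83 aged and 150 young nuclei, 5 of 6 members with enough UMIs were lower past the threshold, Hspa4l, Hsph1, Hsp90ab1, Hspa8 and Hspa5, against 18.4% of its genes. Hsp90aa1 was the sixth, at 195 and 185 CPM. Cryab in the Prdm16 Ano1 Clic4 type gave 24 and 77 UMIs, a ratio of 0.382 (0.231 to 0.610). Over all neurons droplets would add 91.3% of the aged and 82.7% of the young Cryab UMIs. The part of free RNA in the Cryab ratio of this type was not tested. Neither type was picked by rule, and both were named after their values were seen. Hspa1a and Hspa1b had under 50 UMIs in every type.

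The order of the neuron types was shared between the libraries for the abundant members. As a description over 22 types, which share library and depth, Pearson's r between aged and young levels was 0.888 for Hsp90ab1, 0.888 for Hsp90aa1, 0.815 for Hspa8, 0.769 for Hspa5, 0.619 for Hspa4l, 0.480 for Hsph1 and 0.261 for Cryab. The sparse Cryab levels of neurons, mostly free RNA by the droplet measure, kept their order least among these 7. Hsp90aa1 ran in the aged library from 116 CPM in the Drd2 Adora2a Penk type to 335 CPM in the Egfr Igfbp4 Kit type, and in the young library from 113 CPM in the Impg1 Drd1 Pdyn type to 287 CPM in the Il31ra Tcf7l2 Frem1 type.

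**Figure D5:**
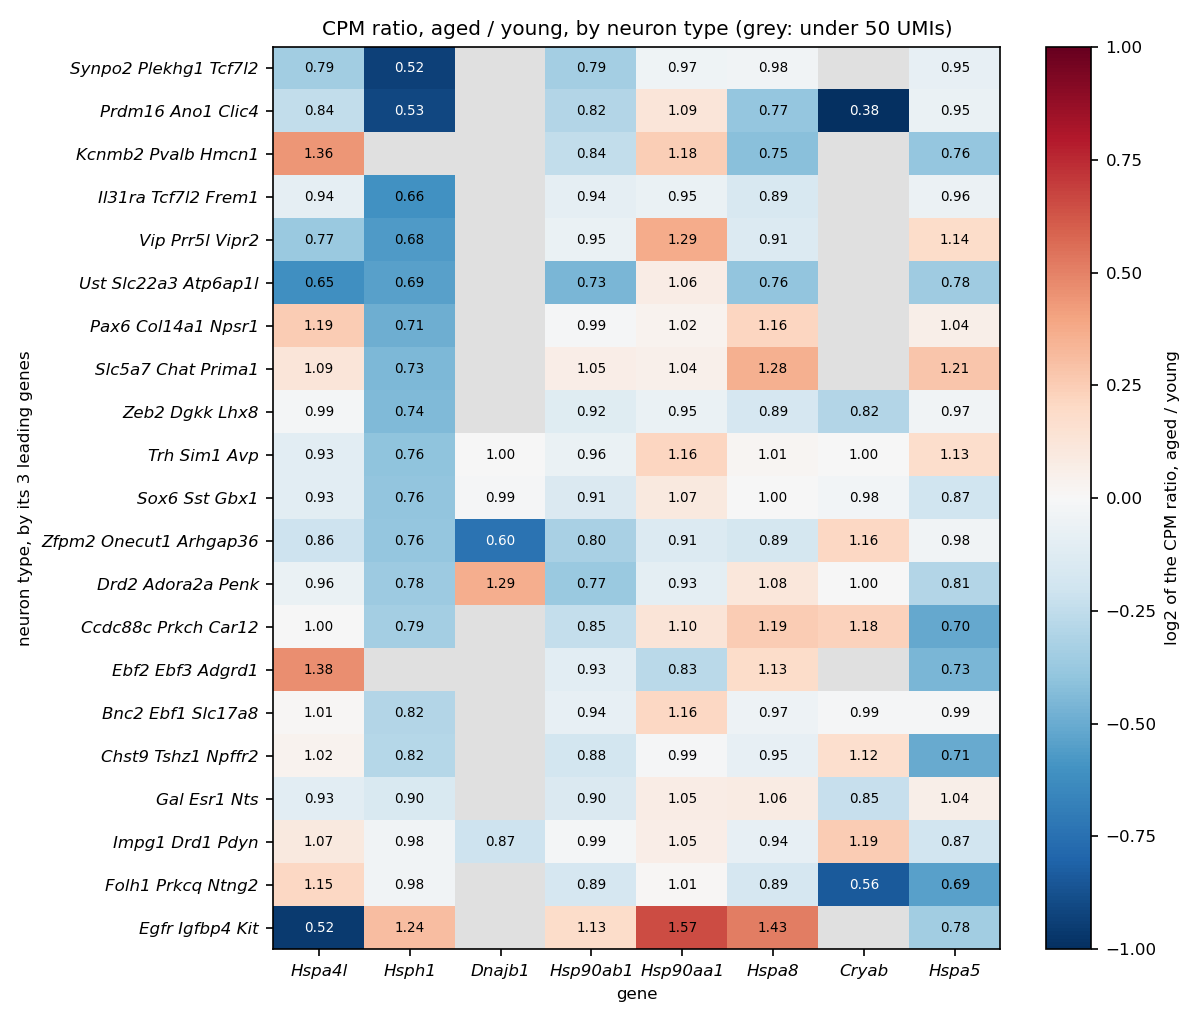
Log2 ratio of CPM, aged over young, for 8 members in 21 of the 22 neuron types; grey cells had under 50 UMIs numbers are ratios, and the colour is full at a log2 ratio of 1 in either direction. The Hsph1 column is below 0 in 18 of 19 drawn types, while Hsp90aa1 is above 0 in 14 of 21.

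Genes with the most similar pattern were searched among 16767 genes over 52 points, 26 classes and neuron types in each of 2 libraries that share depth and free RNA. Among the nearest to Cryab were the myelin gene Mal and the lipid carrier Apod, with Pearson's r of 0.928 and 0.924. Nearest to Hspa5 were 3 further proteins of the endoplasmic reticulum, Hsp90b1 at 0.820, Pdia3 at 0.793 and Pdia6 at 0.775. Hsp90ab1 was nearest to its fellow members Hsp90aa1 at 0.873 and Hspa8 at 0.870, then to Eif3c at 0.809, and Hsp90aa1 after Hsp90ab1 to Hspa8 at 0.858 and Cox4i1 at 0.848. Hspa8 was nearest to Ndufa12 at 0.881 and Ndufa13 at 0.873, subunits of the respiratory chain, ahead of Hsp90ab1. Hspa4l was nearest to Ddx55, an RNA helicase, at 0.818, then Camta1 at 0.812 and Zfyve9 at 0.796. The nearest genes to the sparse members were weaker: 4930506C21Rik, 1700022I11Rik and Zscan22 for Hsph1 (0.672, 0.655 and 0.646), and Ccdc25, Tmem120a and Gm15265 for Dnajb1 (0.659, 0.651 and 0.646). For Hspa1a they were Msl3, Surf1 and Mfsd14a (0.595, 0.546 and 0.538), and for Hspa1b Trim13, A230059L01Rik and Bfsp2 (0.601, 0.566 and 0.563), in counts too sparse to read.

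Other genes of the pathways were taken from lists. In oligodendrocytes, of 16 further heat shock factors and HSF1 targets with enough UMIs, 8 had ratios below 1 and 8 above, with 4 at 0.8 or below and a median log2 ratio of -0.03, against 0.09 for all genes. Of all genes there, 35.7% were below 1, 8.28% at 0.8 or below and 64.3% above 1. Under TMM scaling 51.3% of all genes were below 1 and 48.7% above, and the list of heat shock factors and HSF1 targets had 11 below and 5 above. The lowest were Ahsa2, an HSP90 co-factor, at 33.5 CPM in aged and 64.7 CPM in young oligodendrocytes, a ratio of 0.518 (0.419 to 0.638), Bag3, a co-chaperone of HSP70, at 0.591 (0.334 to 1.02), and Stip1, which joins HSP70 to HSP90, at 0.650 (0.526 to 0.801). Of 23 chaperones and stress genes of the endoplasmic reticulum, 17 were below 1, 5 of them past the threshold, at a median log2 ratio of -0.16 and summed levels of 1593 and 1767 CPM. Under TMM scaling 20 were below 1, 8 of them past the threshold. All 8 mitochondrial chaperones were above 1, though 3 of them were below 1 under TMM scaling, and Grpel1, a nucleotide exchange factor, was at 38.0 and 26.0 CPM, a ratio of 1.46 (1.14 to 1.88). Of 23 cytosolic co-chaperones, 17 were above 1, which TMM scaling cut to 12, and their median log2 ratio of 0.12 lay near the 0.09 of all genes. Of 8 subunits of the TRiC chaperonin, a folding cage for actin and tubulin, 3 were below 1 and 5 above, with 5 below and 3 above under TMM.

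Immediate early genes, which respond within minutes to activity or to tissue handling, were listed beside the chaperones. In neurons 17 of 20 were below 1 and 13 of them past the threshold, against 47.0% and 13.6% of all genes, with summed levels of 148 CPM in aged and 176 CPM in young nuclei. The lowest in neurons were Egr2 at 14 and 37 UMIs, a ratio of 0.456 (0.228 to 0.864), Nr4a3 at 0.563 and Fosl2 at 0.571, while Jund was at 1.23 (1.16 to 1.31). In oligodendrocytes 6 of 7 were above 1, or 5 under TMM scaling, against 64.3% and 48.7% of all genes. Their median log2 ratio was 0.11, near the 0.09 of all genes, with summed levels of 268 and 207 CPM. Dusp1 there gave 39 and 18 UMIs, a ratio of 2.33 (1.30 to 4.32), and Jund was at 1.48 (1.29 to 1.69). Jund, a subunit of the AP-1 factor, was also at 2.09 (1.19 to 3.66) in astrocytes and 2.32 (1.45 to 3.79) in precursors. The part of handling in the chaperone values was not tested.

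In neurons 6 of 8 mitochondrial chaperones were above 1, or 5 under TMM scaling, with a median log2 ratio of 0.12, against 0.01 for all genes. They summed to 343 CPM in aged and 327 CPM in young neurons, a ratio of 1.05 (1.03 to 1.07). Of 19 heat shock factors and HSF1 targets, 12 were below 1 and 2 past the threshold, and of 24 cytosolic co-chaperones 9 were below 1 with 0 past the threshold. Of all neuron genes, 47.0% were below 1, 13.6% lower past the threshold and 53.0% above 1. Hspa2, an HSP70 of germ cells and neurons, gave 140 and 110 UMIs, a ratio of 1.53 (1.19 to 1.99), and Bag5, a co-chaperone of HSP70, was at 1.247 (1.13 to 1.38). In microglia 15 of 21 endoplasmic reticulum genes were below 1, 7 past the threshold, against 45.3% and 15.2% of all genes, with Dnajb9, a J-domain partner of Hspa5, at 26.5 and 46.3 CPM, a ratio of 0.573 (0.337 to 0.955). Hspd1, the mitochondrial HSP60, was at 75.3 and 46.3 CPM in microglia, a ratio of 1.63 (1.11 to 2.42). The others furthest from 1 in microglia were Cct3 at 0.647 and Bag5 at 0.651, and Hspa9 at 1.54 and Dnaja2 at 1.496. In precursors Stip1 stood at 24.4 and 52.7 CPM, a ratio of 0.462 (0.263 to 0.782), with Manf at 0.628, Dnajc3 at 0.630, Tcp1 at 1.73 and Ppid at 1.96. In astrocytes Atf6, a sensor of endoplasmic reticulum stress, stood at 37.6 and 75.3 CPM, a ratio of 0.499 (0.291 to 0.817), with Cct4 at 0.627, Cct3 at 0.653, Cct2 at 1.65 and Ppid at 1.89.

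The gene minimum of the selection was checked at its edge. Barcodes with 450 to 499 genes, just outside, numbered 151 aged and 103 young, with 6444 and 7091 CPM of the 10 members summed. Barcodes with 500 to 549 genes, just inside, numbered 202 and 43, with 6077 and 6623 CPM. These sums lie near those of droplets without nuclei, 6138 and 7638 CPM, and far above those of all nuclei, 1010.4 and 1068 CPM. They also lie above the second measure of free RNA, barcodes with at most 100 UMIs, at 3086 and 3014 CPM.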

How the data were processed

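Each library was deposited as an unfiltered matrix of UMI counts per gene and barcode, which the authors made with Cell Ranger 4, per the file headers. No source used here states the genome build, annotation, strand setting or counting of introns. The totals were 79107368 UMIs in the aged and 87520038 UMIs in the young library.

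Barcodes with at least 500 genes and at most 5% mitochondrial UMIs were kept, likely doublets were left out with Scrublet (4.69% of aged and 4.78% of young), and both libraries were clustered together (2000 variable genes, 30 components, 15 neighbours, Leiden resolution 1; scanpy 1.11.5, Python 3.11.15). Counts were summed per class and library and scaled to CPM, with exact Poisson, conditional binomial and Clopper-Pearson intervals (scipy 1.17.1); log2 ratios add 5 CPM. The ratio script was tested on simulated data. No test between ages was run, since each age has 1 library.

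The members, lists and rules were chosen with earlier results of these data known. All members are named in every class. Of the lists, the genes furthest from 1 (up to 3 per direction and class) are named, as are the 3 genes of highest Pearson correlation with a member, apart from 1 gene that, like the name of 1 neuron type, is not reported here. 4 features named for Cre or tdTomato were not used here. Alternatives changed the nucleus call, doublets, resolution, free RNA, scaling, added CPM and fold.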

Additional observations from a re-analysis of the deposited data

Results flagged for a closer look

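Some members had opposite ratios in different groups of nuclei; none of these differences was tested. Chaperone Hspa4l had its highest ratio, 1.38 (0.812 to 2.33, 30 aged and 33 young UMIs), in the Ebf2 Ebf3 Adgrd1 neuron type and its lowest, 0.515 (0.319 to 0.807, 26 and 86 UMIs), in the Egfr Igfbp4 Kit type. Dnajb1 was at 1.29 (0.729 to 2.29, 28 and 26 UMIs) in the Drd2 Adora2a Penk type and at 0.601 (0.337 to 1.04, 21 and 41 UMIs) in the Zfpm2 Onecut1 Arhgap36 type, intervals that both include 1. Hspa8 was at 1.43 (1.13 to 1.80, 139 and 166 UMIs) in the Egfr Igfbp4 Kit type and at 0.748 (0.502 to 1.10, 42 and 79 UMIs) in the Kcnmb2 Pvalb Hmcn1 type. Over classes, Cryab was at 1.28 (0.804 to 2.02, 32 and 56 UMIs) in astrocytes and at 0.670 (0.460 to 0.969, 50 and 77 UMIs) in microglia. The Egfr Igfbp4 Kit type thus had Hspa4l lower and Hspa8 higher in the same 63 aged and 92 young nuclei.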

How the results depend on the processing

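Of 620 recomputed member values, 551 stayed within their counting interval, 68 were counted as outside it and 1 past the threshold changed direction. The 68 include Hspa1b in microglia and Hspa1a in precursors under every setting. Neither had a UMI there in either library under the main setting, so no ratio or interval exists, and the Hspa1b value stayed at 0 throughout. The change of direction came with free RNA subtracted as measured in barcodes of at most 100 UMIs. Cryab in astrocytes then had a log2 ratio of -1.34, and Jund there, from the lists, -1.57, and the cause was not tested. Counting ratios short of the threshold, 37 crossed 1, 14 of them under the subtractions, and under the first Hspa8 had log2 ratios of -3.40 in astrocytes and -2.61 in precursors. That subtraction gave 5 lower members in aged astrocytes and 4 in aged precursors. A fold of 1.5 gave 0 lower members in neurons, 3 in oligodendrocytes, 1 in astrocytes, 0 in microglia and 1 in precursors. With doublets kept, 1 member was lower in microglia, and with 20 CPM added, 0 in neurons and 1 in astrocytes; adding CPM shrinks the ratios of low genes by construction. In oligodendrocytes the count at a ratio of 0.8 was 5 to 8 under the other settings. The subtraction of droplet RNA and the equal weighting of the oligodendrocyte clusters were chosen after seeing the data. No paired analysis was possible because there is 1 library per age. A second library per age is what the values lack, since intervals cover counting error only, and Hspa1a and Hspa1b outside oligodendrocytes and neurons rest on at most 4 UMIs per class and library.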
